A study of Mus musculus with 18 samples.

Results

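The cell cycle genes described here are 50 genes listed by symbol. They were matched in the gene name column of the deposited count table, 50 of its 48709 genes. They were chosen by role, with earlier results of these data known. By role they fall into 9 cyclin D, kinase and inhibitor genes of G1, 15 genes of S phase and 26 genes of G2 and mitosis. The table holds 18 left ventricle libraries of polyadenylated RNA, 6 for each of 3 treatments. All came from male wild-type C57BL/6J mice of 12 weeks, treated for 21 days. Controls received saline. The second group received isoproterenol, a beta-adrenergic agonist that overloads the heart, at 30 mg/kg per day by osmotic pump. The third, called the combined group below, received the same isoproterenol with minocycline, a tetracycline antibiotic with anti-inflammatory activity, at 50 mg/kg injected daily. No group with minocycline alone was analysed here, so the effect of minocycline was measured only in animals that also had isoproterenol. Libraries held 14203041 to 22688664 counts. The protocol text speaks of pooled RNA, so it is uncertain how many animals stand behind each library. Every p-value rests on the variation among libraries of a group, which may in part be technical.

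Cells enter the cycle in G1, when D-type cyclins bind Cdk4 or Cdk6 and relieve the block that retinoblastoma proteins place on E2F factors. E2F then drives the genes of S phase, which license and copy DNA. Genes of G2 and mitosis follow later, under FoxM1 and the MuvB complex, which acts at the cell cycle homology region (CHR). Their promoters often also hold the CCAAT box, which is bound by NF-Y. CDK inhibitors of the Cip/Kip and INK4 families restrain the kinases. Adult cardiomyocytes rarely divide, so cycling cells in a stressed adult heart are mostly interstitial, and mitotic transcripts are scarce in whole ventricle. In bulk tissue, fewer cells of a type and less RNA per cell cannot be told apart, and this holds for every value below.

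The motifs searched for here are known from promoters of S phase and mitotic genes, so matches in such promoters were foreseeable. Shown are the promoters of the 5 mitotic genes called with isoproterenol and of the called S phase gene Mcm3. Also shown are those of the proliferation markers Mki67 and Top2a, which were called in no comparison. Each run is the 150 bases before the RefSeq start on GRCm38.p6, read 5′ to 3′ on the gene's strand. Capitals mark a CCAAT box (CCAAT or its reverse complement), a CHR (its forms are spelled out in the next paragraph) or an E2F site.
Cdk1, chr10:69352913-69353062, minus strand: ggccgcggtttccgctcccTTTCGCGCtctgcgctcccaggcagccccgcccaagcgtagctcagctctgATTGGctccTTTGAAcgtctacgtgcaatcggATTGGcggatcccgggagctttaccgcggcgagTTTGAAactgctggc
Kif11, chr19:37376232-37376381, plus strand: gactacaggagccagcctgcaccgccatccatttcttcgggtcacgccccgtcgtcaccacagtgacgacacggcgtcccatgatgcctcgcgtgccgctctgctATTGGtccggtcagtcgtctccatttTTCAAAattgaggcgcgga
Bub1b, chr2:118598061-118598210, plus strand: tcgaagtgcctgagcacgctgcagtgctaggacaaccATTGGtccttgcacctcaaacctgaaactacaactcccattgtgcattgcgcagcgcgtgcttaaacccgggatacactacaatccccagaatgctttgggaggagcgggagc
Cenpf, chr1:189688087-189688236, minus strand: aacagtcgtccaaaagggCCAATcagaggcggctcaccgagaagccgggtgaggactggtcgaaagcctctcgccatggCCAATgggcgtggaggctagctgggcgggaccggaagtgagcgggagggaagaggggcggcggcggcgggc
Anln, chr9:22389207-22389356, minus strand: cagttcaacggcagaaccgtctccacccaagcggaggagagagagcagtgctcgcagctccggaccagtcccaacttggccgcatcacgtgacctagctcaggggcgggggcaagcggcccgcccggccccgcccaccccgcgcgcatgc
Mki67, chr7:135716380-135716529, minus strand: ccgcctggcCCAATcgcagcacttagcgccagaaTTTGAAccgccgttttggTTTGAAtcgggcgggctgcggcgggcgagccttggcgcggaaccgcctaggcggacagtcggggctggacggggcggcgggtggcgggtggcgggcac
Top2a, chr11:99024190-99024339, minus strand: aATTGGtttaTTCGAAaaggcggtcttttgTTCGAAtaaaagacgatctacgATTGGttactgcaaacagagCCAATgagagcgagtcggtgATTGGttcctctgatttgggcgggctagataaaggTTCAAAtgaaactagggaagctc
Mcm3, chr1:20820313-20820462, minus strand: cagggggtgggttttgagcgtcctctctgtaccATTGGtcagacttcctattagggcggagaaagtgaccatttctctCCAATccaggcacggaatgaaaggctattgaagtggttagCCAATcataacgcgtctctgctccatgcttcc
The printed stretches of Cdk1, Kif11, Mki67 and Top2a each hold a CHR and a CCAAT box. Those of Bub1b and Cenpf hold CCAAT boxes and no CHR, as does that of Mcm3, and that of Anln holds none of the motifs. For Bub1b, Cenpf and Anln a CHR string lies elsewhere in the longer window searched next, and for Mcm3 none does.

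Promoter entries of 250 bases before to 50 after the start were at hand for 40 of the 50 genes (45 promoters). The search covered both strands. The NF-Y box was CCAAT. The CHR had 2 forms, the string TTTGAA in one and the string TTCGAA in the other. The 4 E2F strings were TTTCCCGC, TTTGGCGC, TTTGCCGC and TTTCGCGC. None of these strings contains another. Of the 22 mitotic promoters, 18 held a CHR, 19 a CCAAT box and 17 both. Among all 32851 promoters of the table these shares were 19.2%, 37.4% and 7.52%. Birc5, Ccnb1, Cenpe and Nusap1 were the mitotic genes without a CHR string in the window. E2F strings lay in 5 of the 14 S phase promoters (Cdk2, Mcm3, Mcm5, Mcm6 and Mcm7) and in 1 mitotic promoter, that of Cdk1, against 2.26% of all promoters. The S phase promoters held a CHR in 2 cases and a CCAAT box in 10, and the 9 promoters of G1 genes held no CHR, no E2F string and 3 CCAAT boxes. A match describes the letters and is not a measured binding site.

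Levels between genes are compared on the authors' TPM, a scale per transcript length, as means over the 18 libraries. The G1 genes were the most abundant, with a median of 10.3 TPM and a range from 1.19 for Cdk6 to 23.1 for Cdkn1a. Ccnd1 followed at 18.6, Cdk4 at 15, Ccnd2 at 14.8 and Ccnd3 at 10.3 TPM. The S phase genes had a median of 1.85 TPM and 9 of 15 were above 1 TPM, led by Pcna, the DNA polymerase clamp, at 14.3 TPM. The mitotic genes had a median of 0.367 TPM, and 1 of 26, the kinetochore gene Cenpf at 3.10 TPM, was above 1 TPM. Between treatments the TPM scale shifted the median of all tested genes by up to 0.19 on the log2 scale, so treatments are compared on counts scaled by TMM, given as CPM, counts scaled to library depth.

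**Figure D1:**
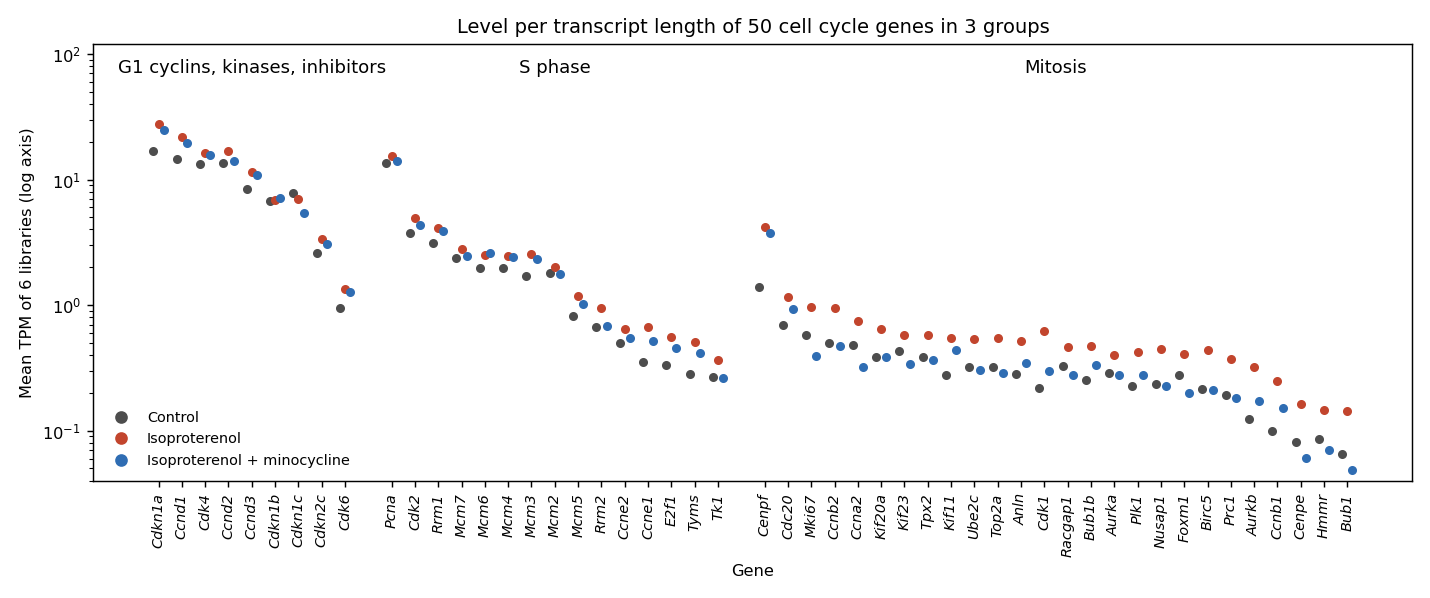
Authors' TPM (log axis) of each of the 50 genes, grouped by role, 1 point per treatment for the mean of its 6 libraries. The G1 genes lie mostly above the S phase genes, and Cenpf (3.10 TPM over all 18 libraries) stands above the other mitotic genes.

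Of the 50 genes, 47 had enough counts to be tested, and Aurkb, Bub1 and Hmmr did not. With isoproterenol, 10 of the 47 rose at an adjusted p under 0.05 in edgeR's quasi-likelihood test, beside 6.94% of all 13281 genes tested. They were Ccnd1, Ccnd3 and Cdk6 of G1, Mcm3 and Tyms of S phase, and Cdk1, Bub1b, Cenpf, Kif11 and Anln of mitosis. None fell, where 5.62% of all genes did. At an unadjusted p under 0.05, 1 fell (Cdkn1c), beside 12.8% of all genes, and 17 rose, beside 14.8%. Limma-voom called the fall of Cdkn1c and DESeq2 did not. Ccnd3, Cdk1 and Bub1b, 3 of the 47, had every isoproterenol library above every control library, beside 3.66% of all genes. The count of 10 depended on single libraries. It was 2 without isoproterenol library 3, 3 without control library 4, 5 without control library 6 or isoproterenol library 2, and 6 without control library 1, control library 3 or isoproterenol library 1. It was 3 (Mcm3, Cdk1 and Anln) without the 4 libraries with the most RNA of the atrial gene Myl7 (above 80 CPM), which are control libraries 5 and 6, isoproterenol library 5 and combined library 2.

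Cyclin D and its kinases moved by small amounts. Ccnd1, the cyclin D1 gene (ENSMUSG00000070348, chr7:144929931-144939925), lay between 42.4 and 54.7 CPM in controls with a median of 48.8. It lay between 52.8 and 70.1 with isoproterenol (median 64.5) and between 46.6 and 77.9 in the combined group (median 56.0). The ranges of control and isoproterenol libraries overlapped at their edges. Ccnd1 rose 1.29-fold with isoproterenol (log2 difference 0.37 ± 0.10 SE, adjusted p = 0.0239, 6 of 6 libraries above the control mean). That call was lost without control library 3 or 4 or isoproterenol library 1, 3 or 5 (adjusted p = 0.054 to 0.0626). In the combined group it was 1.23-fold above control (adjusted p = 0.0494), a call lost in 14 of 18 fits with 1 library left out (adjusted p = 0.0518 to 0.137) and in 8 of 10 other alternatives. The 4 libraries whose removal kept it were control library 5, isoproterenol library 6 and combined libraries 1 and 5.

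Ccnd3, the cyclin D3 gene (chr17:47505051-47599691), had 31.0 to 39.9 CPM in controls (median 36.0), 40.1 to 47.8 with isoproterenol (median 43.3) and 39.0 to 52.2 in the combined group (median 41.4). Every isoproterenol library lay above every control library. Ccnd3 rose 1.21-fold with isoproterenol (0.28 ± 0.07 SE, adjusted p = 0.0167) and 1.2-fold in the combined group against control (adjusted p = 0.0177). Both calls were lost without control library 4 (adjusted p = 0.0506 and 0.0532). The gene overlaps Bysl, which had 45.9% as many counts, and the strand setting of the counting is not given.

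Cdk6, a kinase partner of cyclin D, had 6.89 to 9.12 CPM in controls (median 7.76), 8.56 to 11.1 with isoproterenol (median 9.76) and 8.88 to 11.4 in the combined group (median 9.16). It rose 1.24-fold with isoproterenol (0.31 ± 0.09 SE, adjusted p = 0.03). This call was lost without control library 1, 4 or 6 or isoproterenol library 2 or 3 (adjusted p = 0.0572 to 0.0791). Against control the combined group was 1.23-fold higher (adjusted p = 0.0256), and this call was lost without control library 1, 4 or 6 or combined library 2 or 3 (adjusted p = 0.0548 to 0.0688). With the 4 Myl7-high libraries left out, the isoproterenol calls of Ccnd1, Ccnd3 and Cdk6 were lost (adjusted p = 0.103, 0.128 and 0.0963). So were those of the combined group against control (adjusted p = 0.0934, 0.0718 and 0.11).

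Cdk4 and Ccnd2 passed no test. Cdk4 overlaps Tspan31, which had 116% as many counts. Cdk4 averaged 30.1 ± 1.93 CPM in controls, 32.1 ± 2.07 with isoproterenol and 32.4 ± 3.28 in the combined group (SD, n = 6 each). Ccnd2, the cyclin D2 gene, had a median of 65.2 CPM in controls, 73.1 with isoproterenol and 64.8 in the combined group. Its adjusted p-values were 0.28, 0.593 and 0.702 for isoproterenol versus control, combined versus isoproterenol and combined versus control.

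Of the 4 inhibitor genes, Cdkn1c was called in 1 comparison and the other 3 in none. Cdkn1c encodes p57, a Cip/Kip inhibitor (chr7:143458339-143461050). Controls had 9.44 to 12.2 CPM (median 11.4), isoproterenol libraries 6.64 to 11.3 (median 8.44) and combined libraries 5.66 to 9 (median 6.9). Every combined library lay below every control library, a separation seen in 3.59% of all genes tested. Cdkn1c fell 1.56-fold in the combined group against control (log2 difference −0.64 ± 0.12 SE, adjusted p = 0.00109). That call held in all 18 fits with 1 library left out and in the 10 other alternatives, where adjusted p was at most 0.00736. Its log2 difference was −0.34 for isoproterenol versus control (adjusted p = 0.0746, and 0.0426 with limma-voom or 0.028 without isoproterenol library 2) and −0.31 for the combined group versus isoproterenol (adjusted p = 0.577).

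Cdkn1a, the p53 target that encodes p21, varied widely within groups. It ran from 11.9 to 43.6 CPM in controls (median 26.1), from 22.8 to 58.3 with isoproterenol (median 35.4) and from 21.5 to 72.0 in the combined group (median 29.2). The groups overlapped widely and no comparison passed (adjusted p = 0.386, 0.954 and 0.459). Cdkn1b, which encodes p27, had medians of 21.5, 18.4 and 20.9 CPM in control, isoproterenol and combined libraries, with adjusted p = 0.385, 0.824 and 0.815. Cdkn2c, the INK4 inhibitor p18, was at 3 TPM, with log2 differences of 0.19, −0.08 and 0.12 in the same order and no call.

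**Figure D2:**
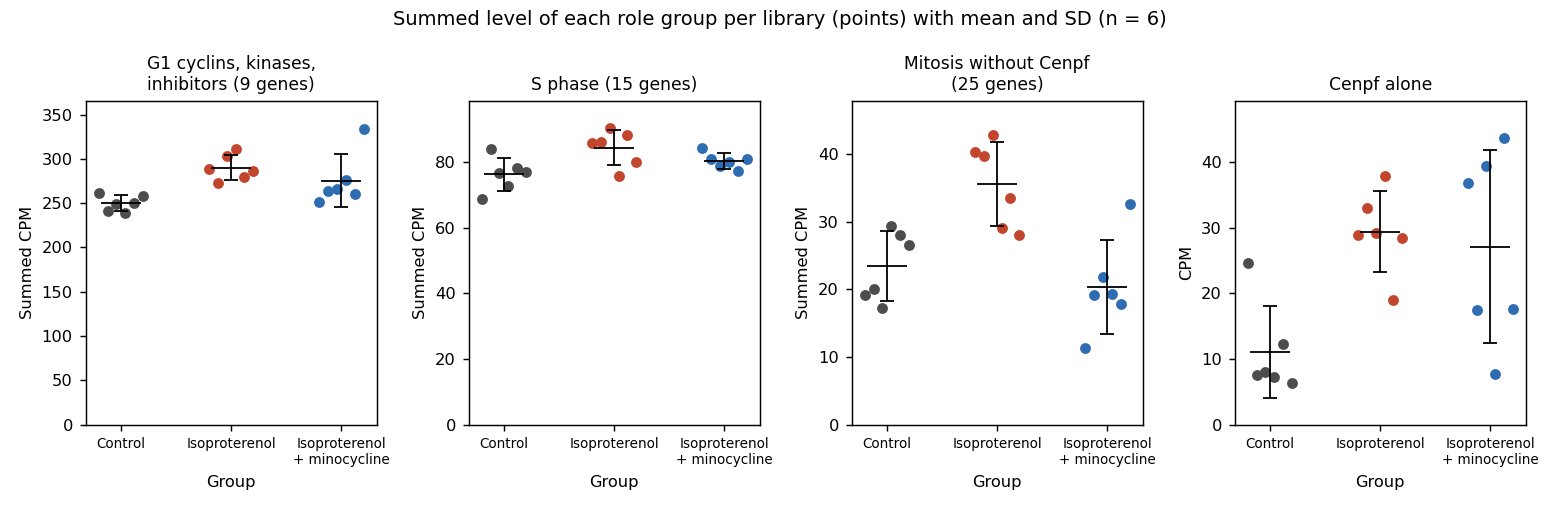
Summed CPM of the 9 G1 genes, the 15 S phase genes the 25 mitotic genes without Cenpf, and the CPM of Cenpf alone, 1 point per library, with group means and SD. The mitotic sums were 28.1 to 42.7 CPM with isoproterenol, 17.3 to 29.4 in controls and 11.4 to 32.6 in the combined group.

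The summed level of the S phase genes differed little between treatments. It was 76.3 ± 5.13 CPM in controls, 84.4 ± 5.38 with isoproterenol and 80.4 ± 2.34 in the combined group (SD, n = 6 each). Over the 15 genes the median ratio of group means was 1.16 for isoproterenol over control, 0.919 for combined over isoproterenol and 1.13 for combined over control. In edgeR's test 2 of 15 rose with isoproterenol, beside 6.94% of all genes. In the other 2 comparisons none was called by edgeR, DESeq2 or limma-voom. The mean CPM was higher with isoproterenol than in controls for 13 of 15 and lower for 2. At an unadjusted p under 0.05, 4 of 15 rose with isoproterenol and 0 fell, beside 14.8% and 12.8% of all genes. At that threshold 0 of 15 differed between the combined group and isoproterenol, beside 3.88% higher and 3.73% lower of all genes. In the combined group 3 of 15 were higher than in control, beside 17% of all genes, a share near that of all genes.

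Mcm3, a subunit of the replicative helicase (chr1:20802968-20820312), had 3.37 to 5.34 CPM in controls (median 4.34), 4.88 to 6.92 with isoproterenol (median 5.85) and 4.6 to 6.82 in the combined group (median 5.55). It rose 1.33-fold with isoproterenol (0.41 ± 0.12 SE, adjusted p = 0.032). The call was lost in 8 of 18 fits with 1 library left out, those without control library 1, 2, 4 or 6 or isoproterenol library 1, 2, 3 or 4 (adjusted p = 0.0511 to 0.0858). Against control, the combined group differed by 0.33 (adjusted p = 0.0613). That adjusted p was 0.0339 without control library 5, 0.0372 without combined library 5 and 0.0476 with the Myl7-high libraries left out. The other helicase subunits Mcm2, Mcm4, Mcm5, Mcm6 and Mcm7 were not called in any comparison.

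Tyms, thymidylate synthase, was counted 15 to 37 times in control libraries (median 19.5), 26 to 44 times with isoproterenol (median 33) and 27 to 40 times in the combined group (median 32). It rose 1.6-fold with isoproterenol (0.68 ± 0.19 SE, adjusted p = 0.024), a call lost without control library 4, 5 or 6, without isoproterenol library 3 (adjusted p = 0.0523 to 0.0618) and with the Myl7-high libraries left out (adjusted p = 0.191). Against control, the combined group differed by 0.45 (adjusted p = 0.101, and 0.0213 without control library 2). Pcna averaged 22.8 ± 0.844, 22.6 ± 1.33 and 21.6 ± 1.15 CPM in control, isoproterenol and combined libraries (SD, n = 6 each) and was not called (adjusted p = 0.926, 0.795 and 0.361). Rrm1, the large subunit of ribonucleotide reductase, averaged 11 ± 0.957 CPM in controls, 12.8 ± 0.81 with isoproterenol and 12.5 ± 1.06 in the combined group. Its adjusted p of 0.0598 for isoproterenol versus control and 0.0847 for combined versus control missed the threshold. The first was 0.0307 without control library 6, 0.047 without combined library 1, 0.0496 with a filter of 1 CPM in 6 libraries and 0.0474 when mean atrial marker level entered the fit, and the second 0.0413 without control library 6.

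Cdk2, the kinase that partners cyclin E, came next below Pcna among the S phase genes at 4.33 TPM. It was not called (adjusted p = 0.205, 0.798 and 0.573). Ccne1, the cyclin E1 gene, was low and had 4 to 20 counts in controls, 10 to 27 with isoproterenol and 11 to 28 in the combined group. E2f1 had 5 to 17, 12 to 30 and 7 to 29 counts in the same order, Rrm2 12 to 30, 22 to 41 and 17 to 37, and Tk1 12 to 25, 13 to 34 and 8 to 27. None of these 4 genes passed a test. Ccne2 overlaps Ints8 (754% as many counts), Mcm7 overlaps Cops6 (905%) and Ap4m1 (106%), and Tk1 overlaps Afmid (530%) and Gm20708 (106%).

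Mitotic genes were higher on average with isoproterenol than in either other group. Without Cenpf, their summed level was 23.4 ± 5.16 CPM in controls, 35.6 ± 6.21 with isoproterenol and 20.3 ± 6.94 in the combined group (SD, n = 6 each). These sums rest on 312 to 619 counts per control library, 466 to 859 per isoproterenol library and 223 to 688 per combined library. Over all 26 mitotic genes, tested or not, the mean CPM was higher with isoproterenol than in controls for 26, with a median ratio of 1.63 and a range of 1.17 to 2.67. The mean was lower in the combined group than with isoproterenol for 26, with a median ratio of 0.585 (0.354 to 0.921). Both statements use the same isoproterenol libraries. Against controls the combined group was higher for 9 and lower for 17, with a median ratio of 0.883. The genes are co-transcribed in cycling cells and are not independent, so these counts are descriptions.

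With any 1 library left out, the mean stayed higher with isoproterenol than in controls for 26 of 26 genes. The combined group stayed lower than isoproterenol for 25 or 26 of 26, with a median ratio of 0.486 to 0.633. Without the 4 libraries high in Myl7, the 26 genes divided as 26 higher and 0 lower for isoproterenol over control (median ratio 1.66). In that subset they divided as 1 higher and 25 lower for combined over isoproterenol (0.596), and as 13 and 13 for combined over control (1.01). Among the 25 genes other than Cenpf, isoproterenol library 3 was the highest of the 18 libraries for 11 and isoproterenol library 2 for 7. Combined library 1 was the lowest for 10.

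**Figure D3:**
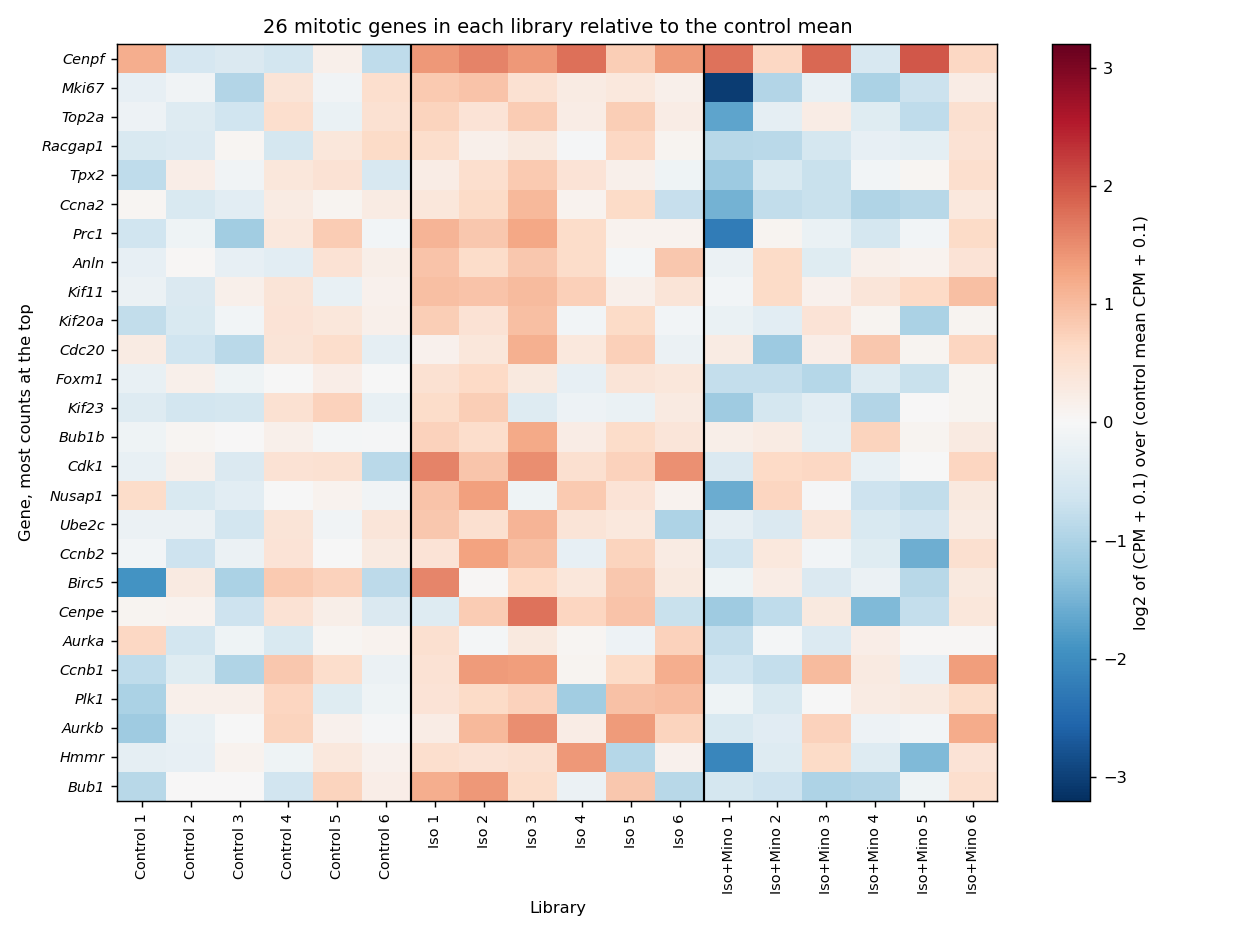
Level of each of the 26 mitotic genes (rows) in each of the 18 libraries (columns, Iso for isoproterenol and Iso+Mino for the combined group), as log2 of CPM + 0.1 over the control mean + 0.1 (color scale). The isoproterenol columns are mostly above 0 and combined library 1 is the lowest column for 10 of the 25 genes other than Cenpf.

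Cdk1, the kinase that drives entry into mitosis (chr10:69336635-69352938), had the smallest adjusted p of the 47 genes for isoproterenol versus control. It was counted 4 to 16 times in control libraries (median 9.5), 15 to 33 times with isoproterenol (median 24.5) and 7 to 20 times in the combined group (median 13.5). Scaled to depth, this was 0.244 to 0.770 CPM in controls and 0.796 to 1.77 CPM with isoproterenol, with no overlap. Cdk1 rose 2.42-fold with isoproterenol (1.27 ± 0.31 SE, adjusted p = 0.00879). The call held in all 18 fits with 1 library left out and in the 9 other alternatives that tested the gene. Combined libraries were lower than isoproterenol libraries by 0.95 ± 0.29 on the log2 scale, with unadjusted p = 0.00395 and adjusted p = 0.451, and their range overlapped both other groups.

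Bub1b, the spindle checkpoint kinase BubR1, was counted 11 to 18 times in controls, 17 to 38 times with isoproterenol and 12 to 24 times in the combined group. Its CPM did not overlap between isoproterenol and control libraries, and it rose 1.65-fold (0.72 ± 0.21 SE, adjusted p = 0.0313). The call was lost without control library 1, 3, 5 or 6 or isoproterenol library 1 or 3 (adjusted p = 0.0518 to 0.0984). Kif11, the kinesin that pushes spindle poles apart, had 13 to 27 counts in controls, 17 to 40 with isoproterenol and 17 to 40 in the combined group. It rose 1.74-fold with isoproterenol (0.80 ± 0.22 SE, adjusted p = 0.0238), a call lost without control library 5 or isoproterenol library 2 or 3 (adjusted p = 0.0503 to 0.0594). Anln, the cytokinetic ring protein anillin, had 14 to 31, 16 to 40 and 16 to 38 counts. It rose 1.63-fold with isoproterenol (0.71 ± 0.22 SE, adjusted p = 0.0394) and lost the call in 10 of the 18 fits with 1 library left out, those without any control library but 5 or any isoproterenol library but 5 (adjusted p = 0.0523 to 0.0968). With the Myl7-high libraries left out, the calls of Bub1b and Kif11 were lost (adjusted p = 0.15 and 0.0719). With no filter on low counts those of Bub1b and Anln were lost (adjusted p = 0.0583 and 0.0581).

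Cenpf, the most abundant mitotic gene, was above control both with isoproterenol and in the combined group. It encodes a large kinetochore and nuclear matrix protein (chr1:189640606-189688086). Controls had 103 to 401 counts (median 156), isoproterenol libraries 304 to 712 (median 529.5) and combined libraries 141 to 799 (median 559). In CPM the medians were 7.79, 29.1 and 27.2. Control library 1, at 24.7 CPM, lay within the isoproterenol range. Combined libraries 2, 4 and 6, at 17.4, 7.66 and 17.6 CPM, lay within the control range, and the other 3 lay above it. Cenpf rose 2.69-fold with isoproterenol (1.43 ± 0.41 SE, adjusted p = 0.0315) and was 2.47-fold above control in the combined group (1.31 ± 0.41 SE, adjusted p = 0.0351). The first call was lost without control library 2, 3, 4 or 6 or isoproterenol library 2, 3 or 4 (adjusted p = 0.0527 to 0.0751). The second was lost without control library 2, 3, 4, 5 or 6 or combined library 1, 3 or 5 (adjusted p = 0.0511 to 0.0799). Both were lost with the Myl7-high libraries left out (adjusted p = 0.119 and 0.11) and with no filter on low counts (0.0513 and 0.056), and the second in a fit of its own 12 libraries (0.0801). Combined and isoproterenol libraries differed by −0.12 (adjusted p = 0.951).

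Adding minocycline to isoproterenol gave no call among the 47 genes tested. In edgeR's test 0 rose and 0 fell, where 1 of the 13281 genes rose (0.00753%) and 6 fell (0.0452%). DESeq2 called 1 of the 47 lower (Foxm1) and limma-voom none. At an unadjusted p under 0.05, 19 of the 47 were lower and 0 higher in the combined group, beside 3.73% and 3.88% of all genes. By role these 19 were 2 of the 9 G1 genes (Ccnd2 and Cdkn1c), 0 of the 15 S phase genes and 17 of the 23 mitotic genes tested. The median log2 difference was −0.07 for G1, −0.12 for S phase and −0.69 for the tested mitotic genes, against −0.003 for all genes tested. No member had every combined library below every isoproterenol library, beside 0.158% of all genes.

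**Figure D4:**
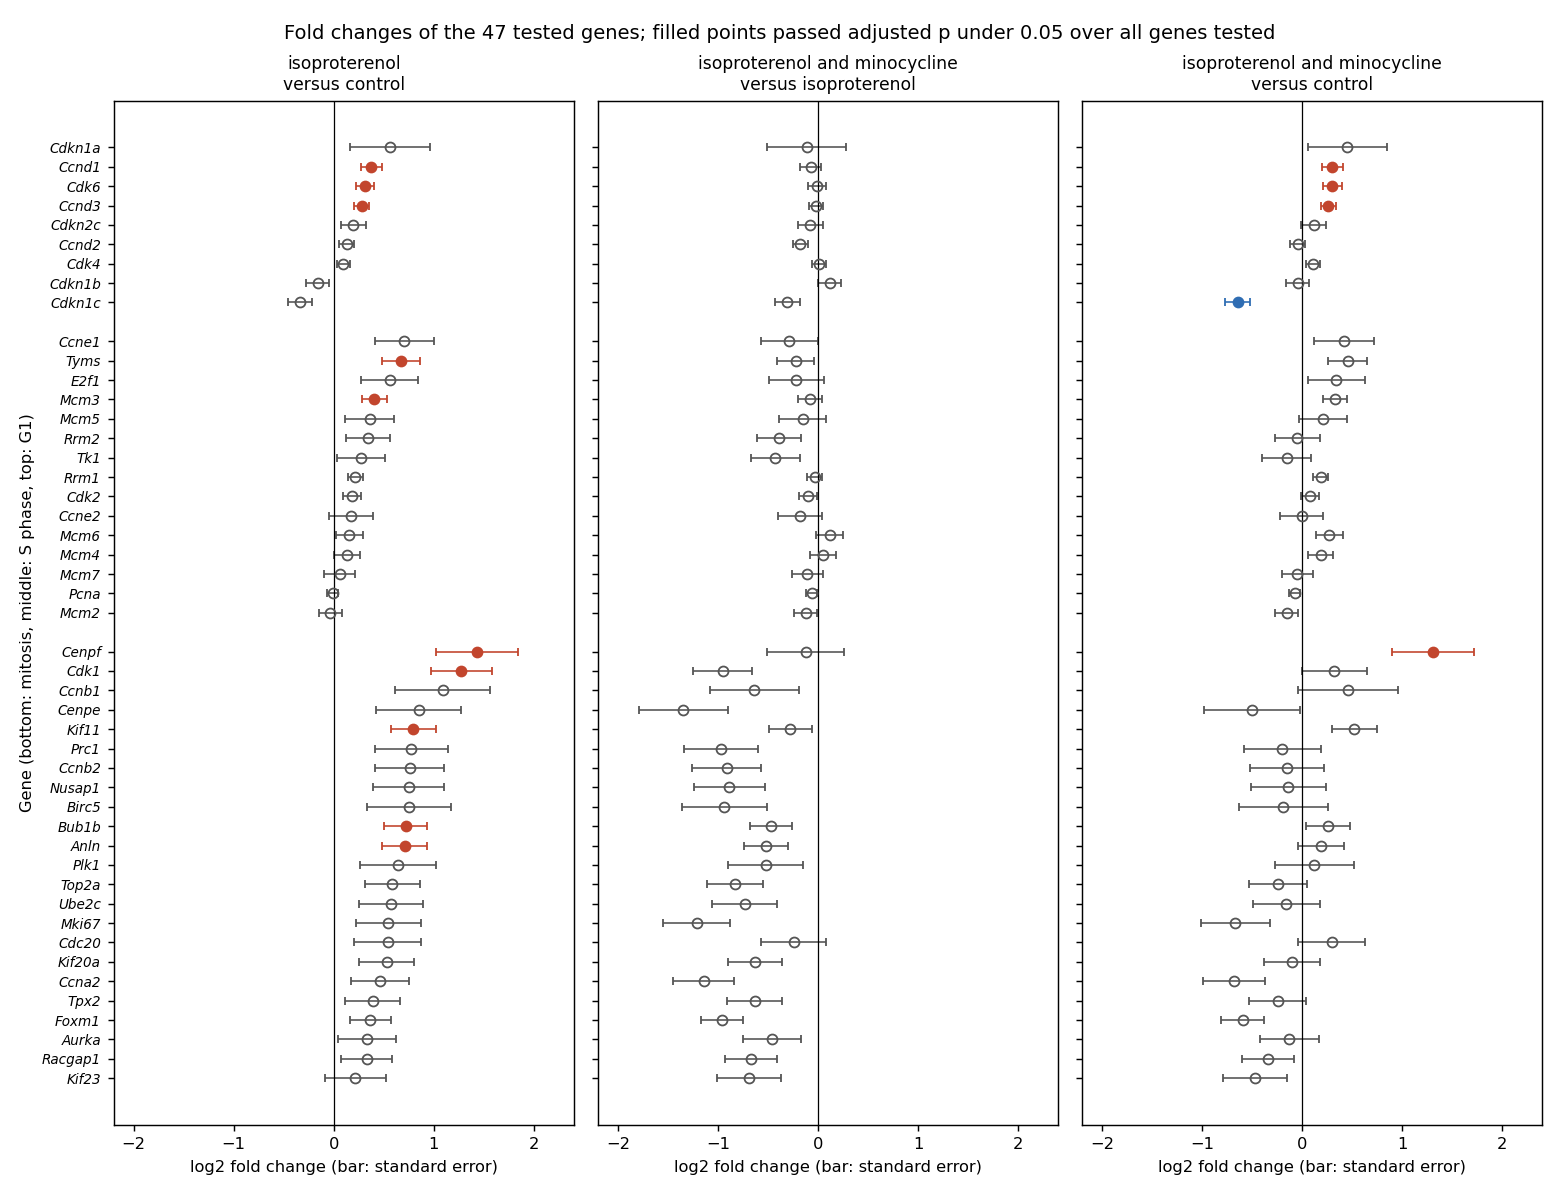
Log2 fold change (points) with its SE (bars) for each of the 47 tested genes in the 3 comparisons, ordered by role, with filled points for adjusted p under 0.05. For the combined group versus isoproterenol every tested mitotic gene is at or below −0.12, and none passed the adjusted threshold in edgeR.

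Foxm1, the transcription factor of G2 and mitotic genes, had the smallest p of the 47 in that comparison. Controls had 15 to 27 counts (median 21.5), isoproterenol libraries 17 to 37 (median 24.5) and combined libraries 11 to 25 (median 13). The means were 1.11 ± 0.141, 1.44 ± 0.295 and 0.733 ± 0.239 CPM (SD, n = 6 each). Combined libraries were lower than isoproterenol by 0.96 ± 0.21 on the log2 scale (unadjusted p = 0.000187, adjusted p = 0.136). Adjusted p was 0.0336 with DESeq2 and 0.0272 in edgeR without combined library 6, the highest of that group. Against control the combined group differed by −0.60 (adjusted p = 0.0573). That adjusted p was 0.0184 with limma-voom, 0.0149 without combined library 6 and 0.0495 without isoproterenol library 4.

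Mki67, which encodes the proliferation antigen Ki-67 (chr7:135689784-135716361), was counted 41 to 114 times in controls (median 76.5), 76 to 161 times with isoproterenol (median 103) and 8 to 102 times in the combined group (median 45). In CPM, controls ran from 2.07 to 5.97 (median 3.74), isoproterenol libraries from 4.58 to 7.78 (median 5.40) and combined libraries from 0.408 to 4.83 (median 2.27). The combined libraries overlapped the controls and 1 of them, at 8 counts, was the lowest of all 18. Mki67 did not pass for isoproterenol versus control (0.54 ± 0.32 SE, adjusted p = 0.29). All 6 combined libraries lay below the isoproterenol mean, by 1.21 ± 0.34 on the log2 scale overall (unadjusted p = 0.00198, adjusted p = 0.351). Against control the difference was −0.67 (adjusted p = 0.183).

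Top2a, the topoisomerase that untangles chromosomes, had 25 to 62 counts in controls (median 33), 40 to 73 with isoproterenol (median 55) and 11 to 61 in the combined group (median 32.5). Its log2 differences were 0.59 for isoproterenol versus control (adjusted p = 0.176), −0.83 for combined versus isoproterenol (adjusted p = 0.496) and −0.24 for combined versus control (adjusted p = 0.595). Ccna2, cyclin A2, had 19 to 35, 13 to 58 and 8 to 37 counts in control, isoproterenol and combined libraries. It was lower by 1.14 ± 0.30 on the log2 scale in the combined group than with isoproterenol (unadjusted p = 0.00108, adjusted p = 0.306), and without combined library 6 the adjusted p was 0.0333. Ccna2 overlaps Exosc9. Cenpe, the kinetochore motor, had the widest log2 difference in that comparison, −1.35 (adjusted p = 0.469), on 4 to 35 counts with isoproterenol and 2 to 13 in the combined group.

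Against control, the combined group had 4 of the 47 genes higher, beside 10.2% of all genes tested, and 1 lower, beside 9.05%. The 4 were Ccnd1, Ccnd3, Cdk6 and Cenpf and the 1 was Cdkn1c. The count of 4 was 0 without control library 4, 1 without combined library 3 and 2 without control library 1, 3 or 6 or combined library 2. With the Myl7-high libraries left out, all 4 calls were lost and Mcm3 was called in their place (adjusted p = 0.0476), a count of 1. Both a fit of the 12 libraries compared and a fit with no filter gave 2. The count of lower genes was 3 with limma-voom (Cdkn1c, Foxm1 and Ccna2), 3 without combined library 6 and 2 without isoproterenol library 4. This comparison shares its libraries with the other 2. The median log2 difference was 0.12 for G1, 0.18 for S phase and −0.16 for the tested mitotic genes.

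The lowest mitotic genes can only be given by their counts. Aurkb, the kinase of the chromosomal passenger complex, was counted 1 to 10 times in control libraries, 5 to 18 times with isoproterenol and 3 to 15 times in the combined group, with medians of 4.5, 10.5 and 4. Bub1, a spindle checkpoint kinase, had 1 to 8, 1 to 14 and 1 to 7 counts, with medians of 4, 7 and 2. Hmmr, a spindle and hyaluronan binding protein, had 4 to 9, 2 to 19 and 0 to 11 counts, with medians of 6, 9 and 4.5. Summed over the 6 libraries of a group, Aurkb had 30, 63 and 40 counts, Bub1 23, 41 and 16, and Hmmr 37, 55 and 31. The groups overlapped for all 3 genes. With no filter on low counts they entered edgeR's test, and none was called. For isoproterenol versus control the adjusted p was 0.113 for Aurkb, 0.348 for Bub1 and 0.496 for Hmmr, and for the combined group versus isoproterenol 0.73, 0.644 and 0.73.

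Other low members were tested and not called. Ccnb1, cyclin B1, had 2 to 13 counts in controls, 6 to 19 with isoproterenol and 3 to 19 in the combined group. Birc5, the survivin gene, had 1 to 21, 11 to 27 and 4 to 14 counts. Plk1, the polo kinase, had 2 to 13, 2 to 13 and 5 to 12 counts, and Ube2c, the ubiquitin enzyme of the anaphase complex, 7 to 17, 4 to 27 and 6 to 16. At such counts, sampling alone moves a library's value by a large share of its size. Some mitotic genes overlap genes with more counts over the 18 libraries. Cdc20 had 383 beside 5923 for Elovl1, Kif20a 395 beside 7357 for Cdc23, and Prc1 454 beside 1515 for Rccd1. Nusap1 overlaps Oip5, which had 33.8% as many counts. The strand setting of the counting is not given, so values of these genes may include reads of their neighbours.

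The wider pathway, taken from lists of genes outside the 50, gave few calls in its G1, S phase and mitotic lists. The shares of all genes tested were 6.94% higher and 5.62% lower with isoproterenol, and 10.2% and 9.05% in the combined group against control. Of 22 tested G1 regulators (Rb, E2F, INK4 and MuvB genes) none was called by edgeR in any comparison, and at an unadjusted p under 0.05 at most 1 moved in either direction. Of 45 tested S phase genes, 2 rose with isoproterenol, the histone chaperone Asf1b (log2 difference 0.89, adjusted p = 0.0248) and Dbf4, the activator of the Cdc7 kinase (0.61, adjusted p = 0.0292). In the combined group against control 3 S phase genes fell and 1 rose. Pole, the catalytic subunit of DNA polymerase epsilon, fell by 0.92 on the log2 scale (adjusted p = 0.00299). Of 34 tested mitotic genes among 60 listed, 1 rose with isoproterenol, the kinesin Kif22 (1.10, adjusted p = 0.0356). None was called in the combined group against isoproterenol, where 11 were lower at an unadjusted p under 0.05, beside 3.73% of all genes, and the median difference was −0.33. Cenpa and Sgol2a fell against control (−0.30 and −0.53, adjusted p = 0.0112 and 0.0274). Of 17 tested p53 targets, the set to which Cdkn1a belongs, 2 rose with isoproterenol (Bax and Phlda3) and 2 fell. Aen, 1 of those that fell, had the smallest p of that list (−0.29, adjusted p = 0.002). In the combined group against control 2 of the 17 rose, again Bax and Phlda3, and 3 fell, among them Sesn1 (−0.64, adjusted p = 0.0068).

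Markers of cell types that could hold cycling cells also differed between treatments. With isoproterenol, 8 of 12 macrophage markers and 5 of 10 fibroblast markers rose, as did 3 of 5 tested mast cell and 2 of 10 mural markers, beside 6.94% of all genes. In the combined group against control 7 of 12 macrophage and 9 of 10 fibroblast markers rose, beside 10.2% of all genes. So did 4 of 5 tested mast cell, 3 of 10 mural and 2 of 10 endothelial markers. In the same comparison 1 mast cell marker fell, beside 9.05% of all genes. None of 10 endothelial markers rose with isoproterenol, with 1 higher at an unadjusted p under 0.05. Summed macrophage markers were 228 to 288 CPM in controls, 325 to 449 with isoproterenol and 311 to 503 in the combined group. Summed fibroblast markers were 1623 to 2222, 2267 to 3094 and 2182 to 3613 CPM. No macrophage or fibroblast marker was called by edgeR between the combined group and isoproterenol. Of all 13281 genes only 1 rose and 6 fell there, and no mitotic gene was called either. At an unadjusted p under 0.05, 1 macrophage marker was higher, 1 was lower and 1 fibroblast marker was higher. Of all genes, 3.88% were higher and 3.73% lower at that threshold. So were higher 2 endothelial, 1 mural, 1 cardiomyocyte and 2 of 5 tested Schwann cell markers. Lower were 1 mast cell marker and 1 of 2 tested neutrophil markers. Lymphocyte markers were near the floor, with 1 of 12 tested and sums of 1.59 to 2.59 CPM in controls, 2.39 to 3.57 with isoproterenol and 1.67 to 2.70 in the combined group. Neutrophil markers had 2 of 8 tested and sums of 0.731 to 2.15, 0.951 to 3.92 and 0.748 to 2.70 CPM, with Ly6g and Ngp at 0 in all 18 libraries. Cardiomyocyte markers were abundant in every library, and 4 of 10 fell with isoproterenol and 5 of 10 in the combined group against control, beside 5.62% and 9.05% of all genes. Atrial markers ran from 23 to 484 CPM across libraries of all 3 groups. The part of these cell types in the cell cycle results was not tested.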

How the data were processed

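Left ventricle RNA from 18 libraries was sequenced as paired 150-base reads, which CLC Genomics Workbench 21.0.3 trimmed and analysed, per the labels' protocols. The submitters' processing notes also list edgeR. For mapping, build, annotation and strand, the settings are not given in the sources. The deposited table gives counts per gene, which were tested, and the authors' TPM, used only for levels between genes. Coordinates are the table's, and 43 of the 50 genes have identical ends in GENCODE M21 on GRCm38. Columns were matched by the number in the description field, with 0 left unmatched. Each title carries another number, lower by 100, and the labels do not say why.

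Genes passing edgeR's filterByExpr (13281, holding 99.93 to 99.95% of counts) entered 1 edgeR 4.0.16 quasi-likelihood fit of all 18 libraries with TMM scaling in R 4.3.3. P-values are 2-sided, adjusted by Benjamini-Hochberg over all 13281 genes and called under 0.05. SE is the log2 difference divided by the square root of F. No 2 libraries of a group agreed within sampling noise (chi-square per degree of freedom 5.57 to 35.4). The procedure was tested on simulated data with genes drawn independently and changes wider than most G1 and S phase calls here. That simulation therefore does not cover small changes or co-transcribed genes. The 50 genes, the other pathway and marker lists and the tests were chosen with earlier results of these data known. Genes named with values are those called, 10 core regulators and those too low to test. Also named are the 2 with the highest mean CPM per role and the smallest p per role and comparison. Other genes given by counts, TPM or p-value (Cdk2, Ccne1, E2f1, Rrm2, Cdkn2c, Ccna2, Cenpe, Ccnb1, Birc5, Plk1, Ube2c) were chosen after their values were seen. Alternatives were 10 other settings, 2 of them added after seeing the data, and each of 18 libraries left out. Promoter sequences are from RefSeq (GRCm38.p6).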

Additional observations from a re-analysis of the deposited data

Results flagged for a closer look

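In 5 of 63 groups (21 named genes in 3 treatments) 1 library stood apart from the other 5 of its group by Dixon's test, where chance flags about 1 in 20 groups. Combined library 6 was high for Ccnd3 (52.2 CPM, next 42.7) and for Cdkn1a (72.0 CPM, next 36.6). Combined library 2 was low for Pcna (19.4 CPM, next 21.6). Isoproterenol library 2 was high for Rrm1 (14.2 CPM, next 12.8). Control library 1 was high for Cenpf (24.7 CPM, next 12.3).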

How the results depend on the processing

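Counts of members called depended on single libraries. With 1 library left out, the isoproterenol count of higher members (10) ran from 2 to 11 and that of lower members (0) from 0 to 1. For the combined group versus isoproterenol, lower members (0) ran from 0 to 2, and for combined versus control, higher members (4) ran from 0 to 4 and lower members (1) from 1 to 3. Without the 4 Myl7-high libraries, a choice made after seeing the data, the isoproterenol count of higher members was 3 and that of the combined group versus control was 1 (Mcm3, none of the 4). The latter was 2 when low genes were kept and 2 when only its 12 libraries were fitted. Limma-voom gave 1 lower member for isoproterenol (Cdkn1c) and 3 for combined versus control, and DESeq2 gave 1 for combined versus isoproterenol (Foxm1). The causes were not tested, but fewer libraries entered each of these fits except those of the filter, DESeq2 and limma-voom. The calls of Cdk1 (isoproterenol) and Cdkn1c (combined versus control) held in every alternative that tested them. Cdk1 was not tested under a filter of 1 CPM in 6 libraries.

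Signs turned for uncalled log2 differences near 0. Without the Myl7-high libraries, Pcna was 0.006988 for isoproterenol, and Ccnd3 was 0.01762 for combined versus isoproterenol. In that comparison limma-voom gave −0.02333 for Cdk4, 0.007471 for Cdk6 and 0.000674 for Rrm1, and the atrial marker mean as a covariate, also added after seeing the data, gave −0.004382 for Cdk4 and 0.009752 for Cenpf. With 1 library left out, Pcna ran from −0.02978 to 0.01448 for isoproterenol. For combined versus isoproterenol, Ccnd3 ran from −0.08349 to 0.01276, Cdk4 from −0.0324 to 0.04514, Cdk6 from −0.06363 to 0.03211, Cdkn1a from −0.4498 to 0.05604, Rrm1 from −0.08003 to 0.005003 and Cenpf from −0.3096 to 0.06774. Cdkn1b ran from −0.08988 to 0.01202 for combined versus control. No paired analysis was possible because the labels give the groups no shared library numbers. Depth limits the precision of the mitotic genes: the 25 other than Cenpf summed to 223 to 859 counts per library.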
